A study of Homo sapiens with 10 samples.

Results

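Small proteoglycans and other stromal matrix genes were followed through the hepatic differentiation of human H1 cells, a widely used embryonic stem cell line. The group held 10 genes out of the 12125 in the deposited table. It was made up of the small proteoglycan genes LUM, DCN and BGN, the matricellular genes POSTN and SPARC, the fibre genes FBN1 and FBLN1, the cell-surface gene THY1 and the receptor genes PDGFRA and PDGFRB. The genes were chosen by name, with their values over the course already known, so their levels and differences are descriptions and support no test. All 10 names were found in the table, and all 10 were kept.

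Bulk RNA was sequenced daily from day 0 to day 3, every 2 days up to day 13 and last on day 21 of a serum-free protocol, with 1 library for each day and no replicate. Day 0 was undifferentiated H1 in mTeSR1 on Matrigel. Days 1, 2 and 3 received 100 ng per ml of Activin A in RPMI/B27 without insulin, and days 5 and 7 received 30 ng per ml of FGF4 with 20 ng per ml of BMP2 in RPMI/B27 with insulin. Days 9 and 11 received HGF and KGF, each at 20 ng per ml, in the same base medium. Day 21 had received Oncostatin M (OSM) at 20 ng per ml in hepatocyte culture medium for 8 days. The day 13 library is labelled OSM, whereas the step lengths of 3, 4 and 6 days let day 13 close the HGF and KGF step, so what medium these cells had last seen is uncertain. All libraries came from the H1 line, and the labels name cell identities as presumed.

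The values are GC-normalized expression values rounded to whole numbers, not read counts and not per transcript length, so the level of one gene cannot be set against that of another. The libraries summed to between 2330948 and 2362740, and the maximum of 18734 was the same in each. From 1554 upwards the values fell into 15 narrow levels shared by the libraries, each more than 20 units from the next, with 9 or 10 genes in each level. The top level lay 1.53 log2 units above the next, so a gene at 18734 can show no further increase. These values do not show how deeply each library was sequenced. Every gene of the table had a value of at least 26 in some library. A listed gene that was not found may therefore have been low throughout, and shares of genes found or called leave such genes out. Differences between days are those of log2(value + 1), and a gene was called higher or lower when the difference was at least 2 (4-fold) and the larger value at least 50. A gene whose larger value was below 50 was not tested. Shares and medians over all genes take tested genes only, whereas counts and medians over the 10 genes take all 10. A value of 0 is given as listed at 0, and no single difference against it is printed. Such differences still enter the calls, medians, correlations and counts of differences, such as those of LUM from day 3 to day 7. The days 9 and 11, which share a medium, differed with a standard deviation of 0.36 log2 units over the 8444 genes with a value of at least 50, and of 0.63 over genes with mean values from 10 to 50. This spread also holds any change between these days. In bulk RNA, a change in the number of cells of a type and a change in the RNA per cell cannot be told apart.

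Small leucine-rich proteoglycans are secreted proteins with a short core and, in most cases, glycosaminoglycan chains. They bind collagen fibrils and regulate how these assemble, and they also bind growth factors such as TGFβ. Fibroblasts, and in the liver stellate cells and portal fibroblasts, are the cells best known for making this matrix, together with fibrillin microfibrils and matricellular proteins, and they carry the PDGF receptors that drive their growth and migration.

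Of the 10 genes, 7 were called higher on day 21 than on day 0 (LUM, DCN, POSTN, SPARC, FBN1, PDGFRA and PDGFRB), 1 was called lower (THY1), and BGN and FBLN1 were not called. Among the 9698 genes tested in that comparison, 11.9% were called higher and 11.5% lower. The median difference over the 10 genes was 5.39, against -0.11 over all genes tested. The genes called were not the same in each interval of the protocol. LUM, SPARC and PDGFRA were called higher from day 3 to day 7, and LUM, DCN, BGN, POSTN, FBN1 and PDGFRB from day 7 to day 13.

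**Figure D1:**
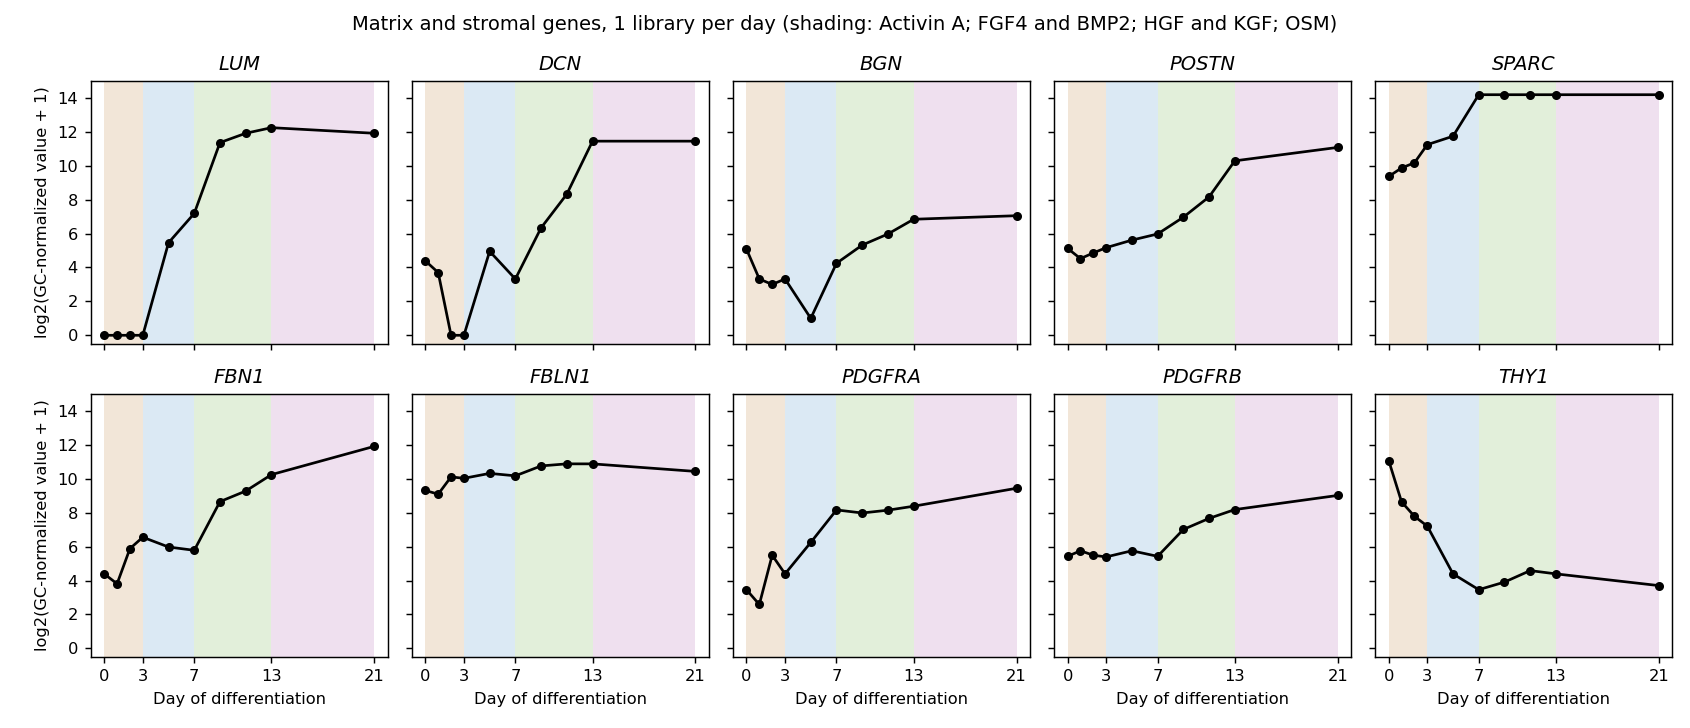
log2(GC-normalized value + 1) of each of the 10 genes against the day of differentiation, with 1 library per day (points) and shading for the 4 protocol steps as the step lengths place them. LUM is listed at 0 up to day 3 and reaches 4866 on day 13, SPARC stays at 18734 from day 7 on, FBLN1 stays between 546 and 1887, and THY1 has 2164 on day 0 and 12 on day 21. The values are not per transcript length, so heights of different genes are not comparable.

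LUM (ENSG00000139329, chr12:91496406-91505608 on the minus strand as the table gives it, in a build the table does not name) encodes lumican, a keratan sulfate proteoglycan that spaces collagen fibrils. Its values, in the order of the 10 libraries from day 0 to day 21, were 0, 0, 0, 0, 43, 145, 2643, 3868, 4866 and 3868. It was thus listed at 0 in the undifferentiated and Activin A libraries, was first above 0 in the first FGF4 and BMP2 library and was highest on day 13. The difference from day 7 to day 13 was 5.06, and that from day 13 to day 21 was -0.33. The values of days 13 and 21 lie on neighbouring shared top levels, 0.33 log2 units apart, so the latter difference is set by the scale.

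DCN (ENSG00000011465, chr12:91539025-91576900, minus strand) encodes decorin, which binds collagen and TGFβ. It had values of 20, 12, 0, 0, 30, 9, 80, 320, 2802 and 2802 in the same order. Both genes were listed at 0 on days 2 and 3 and above 0 on day 5, and both were higher in each library from day 9 to day 13 than in the one before, but DCN had only 9 on day 7. LUM was first called higher than day 3 on day 7 and DCN on day 9. On day 5 their values, 43 and 30, were below the minimum of 50 for a call. The difference of DCN from day 7 to day 13 was 8.13, the largest of any of the 10 genes in that interval. LUM and DCN were neighbours in the table, 33417 bases apart, and each was the only gene of the table within 500000 bases of the other. Their patterns had a Pearson correlation of 0.85 over the 10 libraries.

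BGN (ENSG00000182492, chrX:152767902-152774998, plus strand) encodes biglycan, a proteoglycan closely related to decorin. Its values were 33, 9, 7, 9, 1, 18, 39, 62, 114 and 132. Days 1 to 7 lay below day 0. Each library from day 7 on was higher than the one before, and day 9, with 39, was the first above day 0. The difference was 2.60 from day 7 to day 13 and 1.97 from day 0 to day 21, just under the 2 required for a call, and 2.15, a call, with median-of-ratios scaling of the libraries. Most of its values were below 50, where the spread between days 9 and 11 was widest.

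The other small leucine-rich proteoglycan genes in the table were few. Of 14 listed, 4 were found (OGN, FMOD, PRELP and TSKU). FMOD, the gene of fibromodulin, which also binds collagen, had values of 2 on day 0, 0 on days 1 to 3, 14 on day 5 and 127, 308, 415, 398 and 200 on the days from 7 to 21. OGN, the gene of osteoglycin, was listed at 0 up to day 7 and had 34 and 35 on days 13 and 21, and PRELP had 13 on day 0 and 91 on day 21. TSKU differed from these, with 72 on day 0, 482 on day 3 and 268 on day 21. From day 0 to day 21, 2 of the 4 were called higher (FMOD and PRELP) and 0 lower, where 11.9% and 11.5% of all genes tested were.

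POSTN, FBN1 and PDGFRB were the 3 genes whose patterns were most alike by Pearson correlation of log2(value + 1), with 0.96 for POSTN with PDGFRB, 0.95 for POSTN with FBN1 and 0.94 for FBN1 with PDGFRB. By Spearman correlation they were less alike, with 0.72, 0.89 and 0.72, below 0.95 for LUM with POSTN. Sequences upstream of the transcription start were available from RefSeq for 7 of the 10 genes, in 8 windows. For the 3 alike genes the 250 bases before the start are shown, 5′ to 3′ on the strand of the gene, so that their promoters can be compared. They lie at chr13:37598769-37599018 (POSTN), chr15:48644971-48645220 (FBN1) and chr5:150155846-150156095 (PDGFRB), all on the minus strand of GRCh38.p14, a build that is not to be mixed with the intervals of the table. Capitals mark matches on either strand to 6 motifs, and the matches shown do not overlap each other. The motifs were TATAAA, the TATA box, then GGGCGG, the GC box bound by SP factors, and CCAAT, bound by NF-Y. The others were GGAATG, bound by TEAD factors, TGACTCA, bound by AP-1, and the E-box CACCTG, bound by SNAI and ZEB factors.
POSTN: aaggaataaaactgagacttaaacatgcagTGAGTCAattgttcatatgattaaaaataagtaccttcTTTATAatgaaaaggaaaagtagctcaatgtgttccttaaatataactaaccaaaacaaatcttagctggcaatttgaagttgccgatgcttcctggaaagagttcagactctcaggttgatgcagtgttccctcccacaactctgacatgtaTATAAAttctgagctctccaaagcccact
FBN1: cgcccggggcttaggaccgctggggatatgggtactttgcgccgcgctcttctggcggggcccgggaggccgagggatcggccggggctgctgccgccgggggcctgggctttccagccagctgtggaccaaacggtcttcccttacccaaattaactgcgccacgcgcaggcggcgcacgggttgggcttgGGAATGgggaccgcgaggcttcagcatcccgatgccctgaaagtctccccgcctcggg
PDGFRB: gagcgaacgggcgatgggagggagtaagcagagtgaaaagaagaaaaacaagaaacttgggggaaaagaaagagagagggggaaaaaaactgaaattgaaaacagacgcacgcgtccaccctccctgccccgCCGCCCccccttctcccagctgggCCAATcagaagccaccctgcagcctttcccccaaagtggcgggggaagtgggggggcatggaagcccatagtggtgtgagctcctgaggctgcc
The windows of the 3 genes differed in base composition. The GC content was 36.4% for POSTN, 69.6% for FBN1 and 58.4% for PDGFRB, against a median of 58.0% over all 35116 windows. No motif was found in more than 1 of the 3. POSTN held 2 matches to the TATA box, which was found in 10.7% of all windows. The forward one began 29 bases before the start. POSTN also held the AP-1 motif, found in 4.2% of all windows. FBN1 held the TEAD motif (11.9% of all windows). PDGFRB held the GC box (42.6%) and the NF-Y motif (32.0%). Of the other windows, that of SPARC also held the TEAD motif, those of BGN, FBLN1 and PDGFRA the GC box, and PDGFRA the NF-Y motif as well. The E-box, found in 17.5% of all windows, was in none of the 8. A match to these letters is no evidence that a factor bound there.

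POSTN (ENSG00000133110, chr13:38136722-38172898 in the table, minus strand) encodes periostin, a matricellular protein that links collagen, fibronectin and integrins. Its values were 34, 22, 28, 35, 48, 62, 124, 286, 1252 and 2170. The 6 libraries up to day 7 stayed between 22 and 62, and each library after day 7 was higher than the one before. The largest step was from 286 to 1252 between days 11 and 13. The difference from day 7 to day 13 was 4.31 and that from day 13 to day 21 was 0.79. TRPC4, the only gene of the table within 500000 bases of POSTN, had 62 on day 1, 156 on day 5, 63 on day 7, 2 on day 13 and 13 on day 21. It was lower in each library from day 7 to day 13 than in the one before, while POSTN was higher, and had a correlation of -0.83 with POSTN.

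SPARC (ENSG00000113140, chr5:151040657-151066726, minus strand) encodes osteonectin, a collagen-binding matricellular protein of matrix and basement membrane. It had 660 on day 0, 936 on day 1, 1156 on day 2, 2430 on day 3, 3430 on day 5 and 18734 in every library from day 7 to day 21. Each library up to day 7 was higher than the one before, and any change after day 7 is hidden by the top of the scale. The difference was 2.95 from day 3 to day 7 and 4.82 from day 0 to day 21, both of which are set by the top level.

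FBN1 (ENSG00000166147, chr15:48700503-48938046, minus strand) encodes fibrillin-1, the main protein of microfibrils, which hold latent TGFβ. Its values were 20, 13, 58, 93, 62, 54, 402, 620, 1214 and 3863. A first increase fell in the Activin A days, followed by lower values on days 5 and 7 and a second, larger increase from day 9 on. It was the 1 gene of the group called higher on day 3 than on day 0, with a difference of 2.16, and this call was not made with a pseudocount of 5 or when the larger value had to reach 200. From day 7 to day 13 the difference was 4.47. From day 13 to day 21 it was 1.67, the largest of the group in that interval.

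FBLN1 (ENSG00000077942, chr22:45898118-45927204, plus strand) encodes fibulin-1, which binds fibronectin and elastic fibres. Its values were 634, 546, 1107, 1044, 1278, 1156, 1734, 1887, 1886 and 1385. All libraries lay within 546 and 1887, and no comparison gave a call. The difference from day 0 to day 21 was 1.13, and from day 13 to day 21 the value was lower by 0.45 log2 units. The spread between days 9 and 11 was 0.28 for mean values from 1000 to 2000.

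PDGFRA (ENSG00000134853, chr4:55095264-55164414, plus strand) encodes the receptor for PDGF-A and other PDGF dimers. It had values of 10, 5, 44, 20, 75, 286, 252, 283, 333 and 695. The largest step in log2 units was from 5 to 44 between days 1 and 2, with both values below 50, and day 3 had 20. The difference from day 3 to day 7, over the FGF4 and BMP2 days, was 3.77. The 4 libraries from day 7 to day 13 lay within 252 and 333. From day 13 to day 21 the difference was 1.06.

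PDGFRB (ENSG00000113721, chr5:149493400-149535423, minus strand) encodes the receptor that binds PDGF-B and marks pericytes and stellate cells. Its values were 42, 53, 44, 41, 53, 42, 128, 202, 290 and 518. The 6 libraries up to day 7 lay between 41 and 53, and each later library was higher than the last. The difference from day 7 to day 13 was 2.76, so the 2 receptors were called in different intervals, PDGFRA before day 7 and PDGFRB after it. Their correlation was 0.74. By Pearson correlation PDGFRB was closer to POSTN (0.96), FBN1 (0.94) and DCN (0.92), and PDGFRA to SPARC (0.94) and LUM (0.92). This split depended on the coefficient. By Spearman correlation PDGFRA had 0.93 with POSTN, 0.91 with SPARC and 0.90 with LUM. PDGFRB had 0.90 with DCN, and 0.72 with both POSTN and FBN1.

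Of the PDGF ligand genes, 4 of 5 listed were found, and 0 were called higher in any of the 5 comparisons. PDGFA had 148 on day 0, 29 on day 3, 30 on day 7 and 52 on day 21, and it was called lower on day 3 than on day 0 (-2.31). PDGFB was highest on day 1 with 456 and had 36 on day 21. PDGFC lay between 34 and 130, and PDGFD had 56 on day 13 and 12 on day 21, a called difference of -2.13. No ligand gene was called from day 3 to day 7, where 5.63% of all genes tested were called higher and 4.41% lower, or from day 7 to day 13, where 3.08% and 2.46% were, so with 4 genes the absence of calls is not a result about the ligands.

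THY1 (ENSG00000154096, chr11:119288090-119294838, minus strand) encodes a glycolipid-anchored surface protein that marks fibroblasts but is also a marker of undifferentiated human embryonic stem cells. Its values were 2164, 398, 220, 147, 20, 10, 14, 23, 20 and 12. Day 0 was the highest, the 3 Activin A libraries came next, and the 6 later libraries lay between 10 and 23. The difference was -3.87 from day 0 to day 3, -3.75 from day 3 to day 7 and -7.38 from day 0 to day 21. LUM was above 0 in the 6 libraries in which THY1 was at 23 or less, and listed at 0 in the other 4. It was negatively correlated with each of the other 9 genes, from -0.26 with BGN to -0.92 with SPARC.

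**Figure D2:**
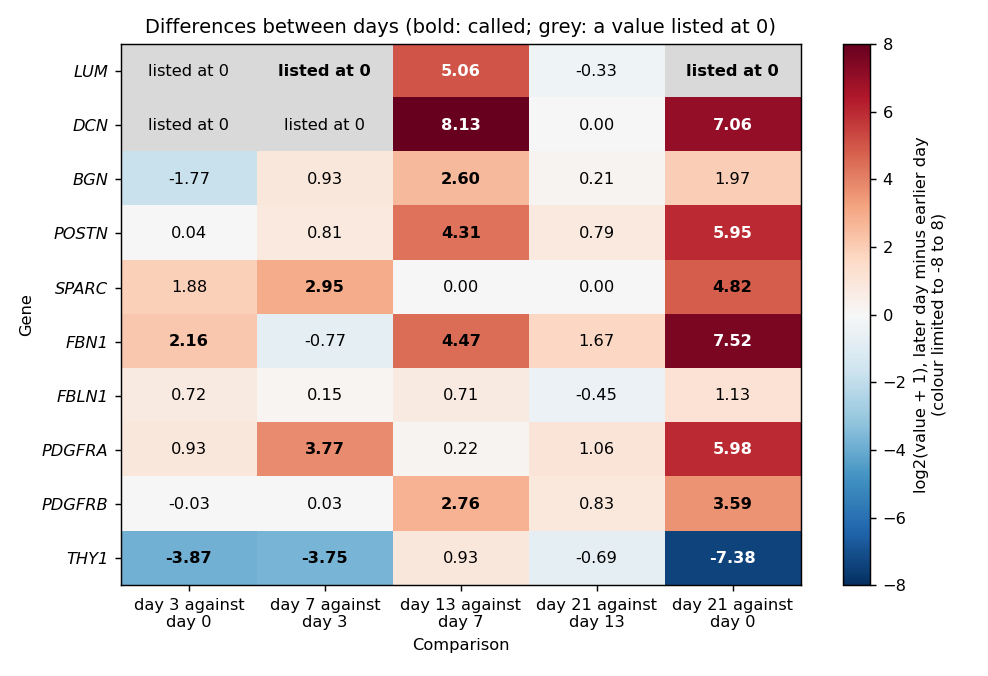
Differences of log2(value + 1) for the 10 genes (vertical axis) in the 5 comparisons between days (horizontal axis), later day minus earlier day, in red where higher and blue where lower. Bold numbers passed the call rule and grey cells involve a value listed at 0. From day 7 to day 13, 6 of the genes are called higher, and from day 13 to day 21 none is.

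The comparison of day 3 with day 0 covers the step to definitive endoderm. FBN1 was called higher and THY1 lower, where 3.94% of the 8934 genes tested were called higher and 2.16% lower. SPARC was higher by 1.88, just short of a call. Only 4 of the 10 genes were tested. The median over all 10 was 0.02 and that over all genes tested -0.06, so these medians rest on unlike filters. DCN went from 20 to a value listed at 0 and BGN from 33 to 9, both below the 50 required.

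From day 3 to day 7, the FGF4 and BMP2 step, 3 genes were called higher (LUM, SPARC and PDGFRA) and 1 lower (THY1), where 5.63% of 9100 genes tested were called higher and 4.41% lower. The median difference was 0.87 over the 10 genes, of which 7 were tested, and -0.04 over all genes tested. FBN1 and PDGFRB had differences of -0.77 and 0.03.

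From day 7 to day 13, 6 genes were called higher (LUM, DCN, BGN, POSTN, FBN1 and PDGFRB) and 0 lower, where 3.08% of 8892 genes tested were called higher and 2.46% lower. The median difference was 2.68 over the 10 genes, of which 9 were tested, and -0.05 over all genes tested. Since the medium of day 13 is uncertain, day 11 was also set against day 7. LUM, DCN, POSTN, FBN1 and PDGFRB were again higher by at least 2, with differences of 4.73 for LUM, 5.00 for DCN, 2.19 for POSTN, 3.50 for FBN1 and 2.24 for PDGFRB. BGN was higher by 1.73.

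Between days 9 and 11, which share HGF and KGF, 9 of the 10 genes were higher on day 11, with a median difference of 0.64, and SPARC was the same at the top level. None passed the call rule, and 0.107% of the 8444 genes tested did in each direction. DCN came nearest, with 80 and 320 and a difference of 1.99, followed by POSTN with 124 and 286. The standard deviation of this same difference over the 8444 genes was 0.36, which is not a spread between replicates, so neither gene was tested against it.

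Pairs of libraries within the other media gave few calls as well. From day 1 to day 2, FBN1 was called higher (13 and 58) and 0 genes lower, where 1.12% of all genes tested were called higher and 0.291% lower. From day 2 to day 3 no gene of the group was called in either direction, where 0.375% and 0.0702% were. From day 5 to day 7 SPARC was called higher (3430 and 18734) and 0 genes lower, where 2.25% and 1.34% were, and PDGFRA, with 75 and 286, came close to a call.

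From day 13 to day 21, 9 of the 10 genes were tested, and 0 were called higher and 0 lower. Of the 8786 genes tested, 2.28% were called higher and 1.62% lower. FBN1, PDGFRA, PDGFRB and POSTN had differences of 1.67, 1.06, 0.83 and 0.79. DCN had the same value, 2802, in both libraries, and LUM and FBLN1 were below day 13 by 0.33 and 0.45 log2 units. The DCN and LUM values of both days lay on the shared top levels, so their differences are limited by the scale. With day 11 in place of day 13, 3 genes were called higher on day 21. These were DCN (3.13), POSTN (2.92) and FBN1 (2.64), so how much of their increase falls before or after day 13 rests on the day 13 library alone.

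**Figure D3:**
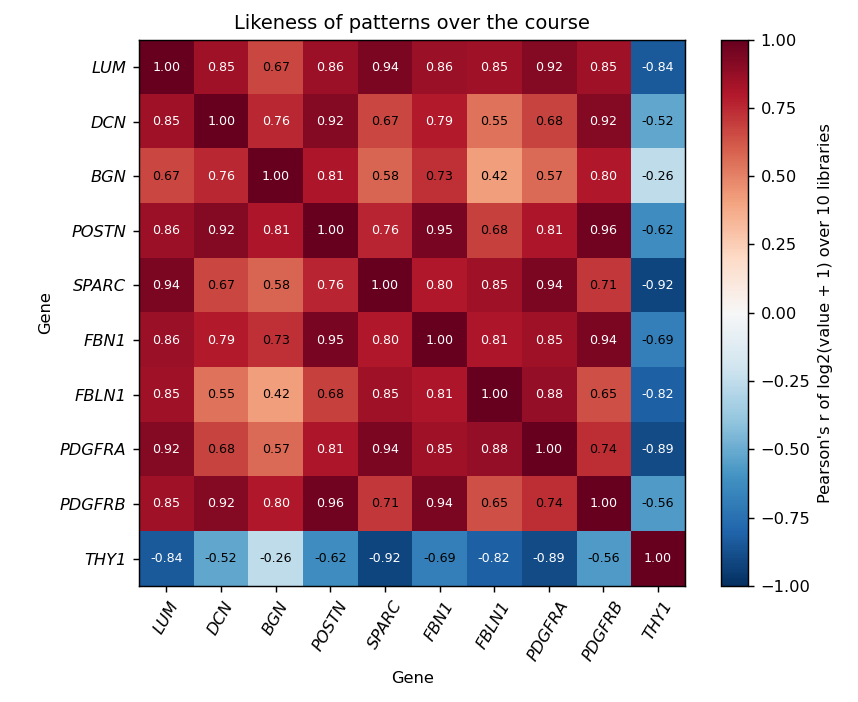
Pearson correlation of log2(value + 1) over the 10 libraries for each pair of genes, from blue (-1) to red (1), with genes on both axes. The 36 pairs without THY1 lie between 0.42 and 0.96, and the 9 pairs with THY1 between -0.92 and -0.26.

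Apart from THY1, all pairs of the group were positively correlated over the 10 libraries, with a median of 0.81 over 36 pairs. This describes a shared direction in a single course, in which successive libraries are not independent. Within it, LUM, SPARC and PDGFRA were alike (0.92 to 0.94) and were first called higher than day 3 on day 7. DCN and FBN1 followed on day 9, and BGN, POSTN and PDGFRB on day 11. On day 5 LUM had 43 and DCN 30, both listed at 0 on day 3. BGN had 9 on day 3 and 39 on day 9. These later values were below the minimum of 50 for a call. The order of first calls for LUM, DCN and BGN thus rests partly on that minimum. FBLN1 never passed the rule against day 3, and THY1 was lower from day 5.

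The genes of the table most like each one, among 10745 with a value of at least 50 in some library, were of many kinds. The closest was IGFBP3 (0.99) for LUM, APPBP2 (0.97) for DCN, GNG12 (0.98) for BGN and MEP1A (0.99) for POSTN. For SPARC it was PACS1 (0.99), for FBLN1 FNBP1 (0.98), for FBN1 USP47 (0.99), for THY1 LINC00263 (0.99), for PDGFRA ADAMTS9 (0.98) and for PDGFRB SI (0.99), an enzyme of the intestinal brush border. IGFBP3, an IGF-binding protein, had 29 on day 3, 634 on day 7, 6495 on day 13 and 4858 on day 21, and ADAMTS9, a protease of proteoglycans, had 12, 243, 839 and 853. MEP1A, an epithelial metalloprotease, had 0, 1, 180 and 1044. Among the 3 closest genes were also SLIT3, a secreted guidance ligand, for LUM (0.99), CSPG4, the pericyte proteoglycan NG2, for DCN (0.96), F10, the liver gene of coagulation factor X, for SPARC (0.99), and SMTN, a smooth muscle protein, for PDGFRB (0.99). These are the highest of many correlations over 10 libraries of a single course and are given as a description.

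Genes of collagen fibrils, to which the small proteoglycans bind, were called higher on day 21 than on day 0 in 11 of the 11 found, out of 12 listed. In that comparison 11.9% of all genes tested were called higher. The intervals differed: 4 were called higher and 2 lower from day 0 to day 3, and again 4 and 2 from day 3 to day 7, then 5 and 0 from day 7 to day 13 and 2 and 0 from day 13 to day 21. The shares of all genes tested in these intervals were, in order, 3.94% higher and 2.16% lower, then 5.63% and 4.41%. For the later intervals they were 3.08% and 2.46%, then 2.28% and 1.62%. COL5A2 had 435 on day 0, 18734 on days 2 and 3, 399 on day 7 and 2972 on days 13 and 21. COL3A1 was listed at 0 on day 0 and had 21 on day 3, 2643 on day 7 and 6502 from day 9 on. COL1A2 had 390 on day 0, 745 on day 7, 6496 on days 9 and 11 and 18734 on days 13 and 21. COL5A1 had 72 on day 0, 838 on day 3, 6493 on day 13 and 18734 on day 21, and COL12A1 had 31 and 2028 on days 0 and 21. The collagen values of days 13 and 21 lay on the shared top levels in many cases, so the differences between these days are limited by the scale.

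Microfibril and elastic fibre genes, which share their structures with FBN1 and FBLN1, were found for 14 of 16 listed. From day 0 to day 21, 7 were called higher and 1 lower, and from day 7 to day 13, 1 higher and 1 lower. Of all genes tested, 11.9% and 11.5% were called in the first comparison and 3.08% and 2.46% in the second. With 14 genes, 1 call in each direction from day 7 to day 13 is not a result about the list. EMILIN1 had 6 on day 0, 28 on day 13 and 282 on day 21, FBLN5 had 28, 232 and 641 and EFEMP2 28, 301 and 482. MFAP4 was high, low and high again, with 956 on day 3, 3 on day 7 and 838 on day 21. FBN1 also had a first increase under Activin A, a lower value on day 7 and a second increase. Its decrease was far smaller, from 93 on day 3 to 54 on day 7 (-0.77, not called), and day 7 stayed above the 20 of day 0.

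Of 20 matricellular genes listed beside POSTN and SPARC, 14 were found, of which 5 were called higher and 1 lower from day 0 to day 21, and 3 higher and 0 lower from day 7 to day 13. The shares of all genes tested were 11.9% and 11.5% in the first comparison, and 3.08% and 2.46% in the second. TGFBI, which encodes a collagen-binding relative of periostin, had 24 on day 3, 144 on day 7 and 3862 on days 13 and 21. WISP1 was listed at 0 up to day 5 and had 34 on day 7, 540 on day 13 and 357 on day 21. SMOC2 had 3 on day 7, 108 on day 13 and 400 on day 21. SPP1, the gene of osteopontin, followed another course, with 26 on day 13 and 1896 on day 21.

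Enzymes that cross-link and process collagen were found for 19 of 23 listed. From day 0 to day 21, 9 were called higher and 1 lower, where 11.9% and 11.5% of all genes tested were. Between days 7 and 13, 1 was called higher and 0 lower, where 3.08% and 2.46% of all genes tested were. With 19 genes, 1 call between days 7 and 13 is not a result about these enzymes. LOX, the collagen cross-linking enzyme lysyl oxidase, had 6 on day 0, 62 on day 7, 518 on day 13 and 6496 on day 21. BMP1, a procollagen protease, had 8, 88, 240 and 496 on those days, ADAMTS2 had 13, 32, 112 and 402, and P4HA1, a prolyl hydroxylase, had 218, 2166, 1279 and 2970.

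The enzymes that build glycosaminoglycan chains, which the core proteins carry, had shares of calls near those of all genes. Of 27 listed, 26 were found, and from day 0 to day 21, 2 were called higher and 4 lower, where 11.9% and 11.5% of all genes tested were, with a median difference of -0.20. From day 7 to day 13, 1 was called higher (CHST2, from 3 to 80) and 1 lower, where 3.08% and 2.46% of all genes tested were. XYLT1, which starts the chain on the core protein, had 142 on day 0, 51 on day 7 and 20 on day 21, and DSEL, which epimerizes dermatan sulfate, had 155, 40 and 14.

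Of 8 listed large proteoglycans and their link proteins, 6 were found. From day 3 to day 7, 3 were called higher and 0 lower, where 5.63% and 4.41% of all genes tested were. From day 13 to day 21, 0 were called higher and 2 lower, where 2.28% and 1.62% of all genes tested were. VCAN, HAPLN1 and ACAN had their highest values within days 7 to 11, and the other genes found followed other courses. HSPG2 had 804, 2796 and 1554 on days 0, 7 and 21, AGRN 724, 1733 and 1278, and HAPLN3 118, 76 and 20. VCAN, the gene of versican, had 474 on day 3, 6496 on day 5, 18734 on days 7 to 11, 6496 on day 13 and 3431 on day 21. Its values from day 5 on lay on the shared top levels, so the differences between them are limited by the scale. HAPLN1, a link protein, had 37 on day 3, 542 on day 7, 295 on day 13 and 65 on day 21, and ACAN, the gene of aggrecan, was highest on day 11 with 102 and had 6 on day 21.

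**Figure D4:**
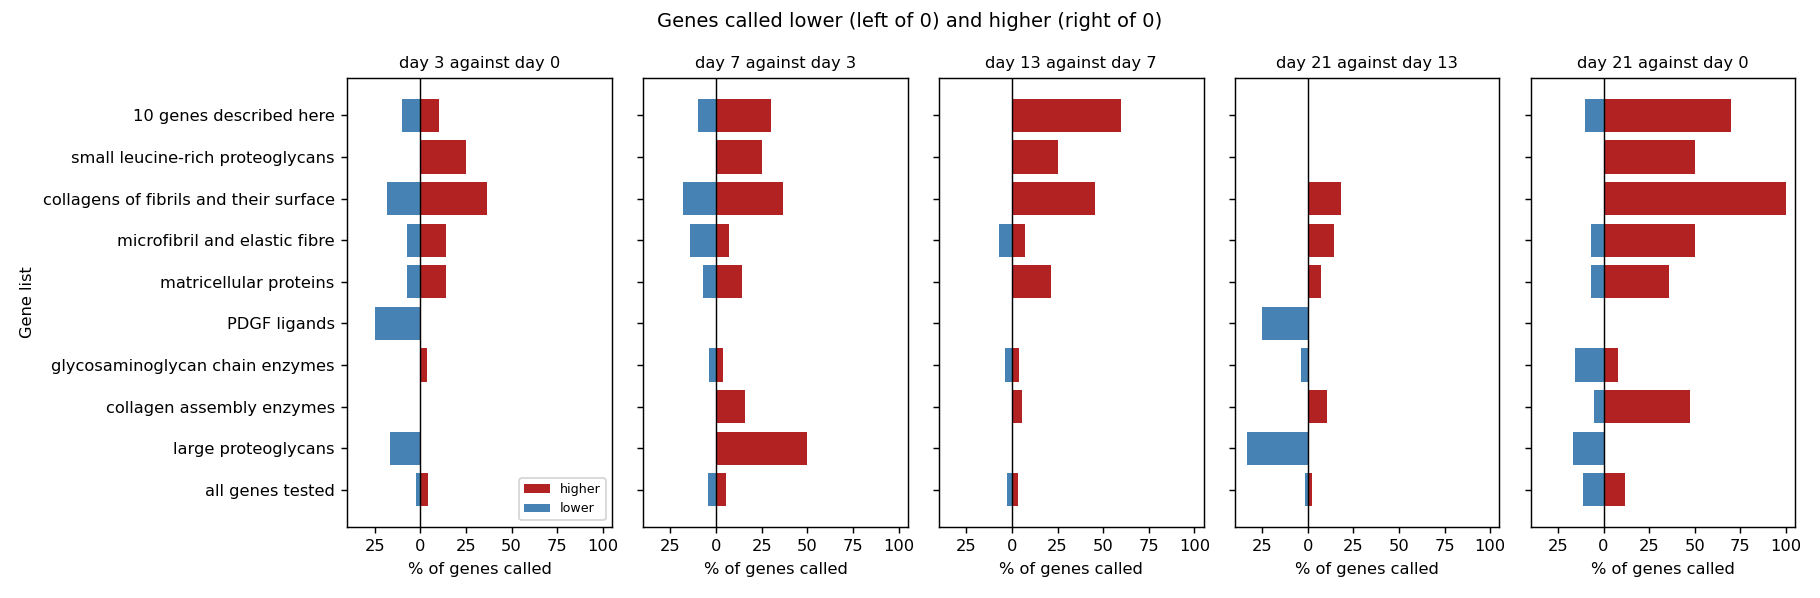
Share of genes called higher (red, right of 0) and lower (blue, left of 0) in each of the 5 comparisons, in percent of the genes found in each list and, for all genes, of the genes tested. Collagens of fibrils are called higher on day 21 in 11 of 11, 2 of the 26 glycosaminoglycan enzymes are called higher and 4 lower over the same days, and from day 13 to day 21 the 10 genes of the group show no call.

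Markers of the cell types that could carry this matrix were also read. Of 10 fibroblast and mesenchymal markers, 5 were found, and their summed value was 61 on day 0, 29 on day 3, 152 on day 7, 309 on day 13 and 444 on day 21. None was listed at 0 on days 13 and 21, but a marker low early on, such as FOXF1, is in the table only through its later values. VCAM1, FOXF1 and ENG had 150, 98 and 94 on day 21, and FOXF1, a factor of splanchnic mesenchyme, was listed at 0 up to day 5 and had 154 on day 13. TWIST1, PRRX1 and TCF21 were not found among the names of the table. Of 12 hepatic stellate markers, 6 were found, and their sum was 6279 on day 5 and 284 on day 21. LRAT, the enzyme that stores retinol in these cells, had 612 on day 0 and 3 on day 21. The sum was carried by RGS5, with 4858 on day 5 and 40 on day 21, and RELN, with 1386 and 30, and it does not stand for the list. From day 0 to day 21, 2 of the 6 were called higher and 1 lower, where 11.9% and 11.5% of all genes tested were. Their median difference was 2.76. COLEC10, CYGB and HGF had 1, 2 and 4 on day 0 and 99, 76 and 36 on day 21.

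Summed markers of other lineages had courses that differed from each other. Values of different genes are not on one scale, so a sum follows its highest values and does not stand for its list. This also holds for the fibroblast and mesenchymal sum. Endothelial markers (7 of 8 found) summed to 407 on day 7, 2060 on day 13 and 1321 on day 21. KDR and TEK had 823 and 889 on day 13 and 302 and 768 on day 21. VWF went the other way, with 309 on day 3, 38 on day 13 and 12 on day 21. Smooth muscle markers (6 of 7 found) had their highest sums on days 1, 2 and 3, with 1636, 1358 and 1504. Their sums were 409, 1126 and 512 on days 7, 13 and 21. TAGLN carried the early sums, with 1434, 1214 and 1324. ACTA2 went the other way, with 3, 6 and 2 on days 1, 2 and 3 and 62, 203 and 126 on days 7, 13 and 21. CNN1 was highest on day 3, MYLK on day 0, ACTG2 on day 13 and LMOD1 on day 21. Mesothelial markers (4 of 7 found) summed to 125, 247 and 804 on days 7, 13 and 21, of which PDPN was 746 on day 21, and macrophage and blood markers (2 of 7 found) to 6, 50 and 324. Hepatocyte markers (9 of 11 found) summed to 141 on day 3, 20037 on day 7, 38566 on day 13 and 80458 on day 21. APOB, TTR and SERPINA1 were each at the top value of 18734 on day 21. All 9 were called higher from day 0 to day 21, where 11.9% of all genes tested were. The part of these cell types in the values of the 10 genes was not tested.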

How the data were processed

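Total RNA of H1 cells was sequenced on 10 days, with 1 library per day. According to the methods, reads were aligned to an Ensembl transcriptome with Bowtie2 and RSEM and normalized for GC content with EDASeq. The submitters' processing notes give RSEM 1.2.17 and Bowtie2 2.2.0, and name both hg19 and mm10. The build of the gene intervals is not given in the sources used here. The values the authors deposited are scores, whole numbers after GC normalization, so no count test was run, and they do not show how deeply each library was sequenced. The methods give only an average depth.

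Columns were matched to days by name. Differences of log2(value + 1) were called at 2 or more, with a larger value of at least 50. With 1 library per day no test was possible. The members and gene lists were chosen with earlier results of these data known. Of each list up to 4 called genes with the largest differences were eligible to be named, of each marker list up to 3 genes highest at day 21, and of each member the 3 most alike genes. Genes within 500000 bases of a member were eligible too. OGN, PDGFB, PDGFC, COL5A2, HSPG2, AGRN, LRAT, RELN, HGF, CNN1, MYLK, ACTG2 and VWF were added after their values were seen. Alternatives were other pseudocounts, filters, thresholds, median-of-ratios scaling and day 11 for day 13. RefSeq promoters were from GRCh38.p14. Python 3.11.15, numpy 2.4.6, pandas 2.3.3 and matplotlib 3.10.9 were used.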

Additional observations from a re-analysis of the deposited data

How the results depend on the processing

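Each of the 5 comparisons was recomputed under every alternative that applied, and no called difference of a member changed its sign. Of 64 counts of called members, 57 stayed within 1.5 times the value reported, and of 27 medians, 19 moved by less than the spread of 0.36. Of 170 differences of single members, 148 moved by less than this spread and 22 by more. From day 0 to day 3 the genes called higher were 0 with a pseudocount of 5, 0 with a larger value of at least 200 and 2 with a difference of at least 1, and those called lower were 2 without a filter on low values. From day 3 to day 7, 0 genes were called lower with a larger value of at least 200. From day 13 to day 21, 2 were called higher with a difference of at least 1. Day 11 in place of day 13 gave 3 called higher and a median of 1.19 up to day 21, and a median of 1.96 from day 7. Without the members that reach the shared top levels, the median was 0.83 from day 13 to day 21 and 3.59 from day 0 to day 21. With members of a larger value of at least 200 only, the medians were 0.72 (day 0 to 3), 2.95 (day 3 to 7), 3.54 (day 7 to 13) and 5.95 (day 0 to 21). The medians were reported with no filter, so that alternative gave no other value. The alternatives use fewer members, other thresholds or another library, and the cause of the shifts was otherwise not tested. Median-of-ratios scaling shifted the differences of single genes, over all genes, by a median of 0.19 from day 0 to day 21. In the other comparisons this median shift was less than 0.1. It changed no count by more than 1.5 times, although BGN was then also called higher on day 21 than on day 0 (8 genes in place of 7). The median correlation changed by less than 0.1 with Spearman's coefficient, but single pairs moved more, such as POSTN with PDGFRB to 0.72. No paired analysis was possible because each day has 1 library, and no replicate could be left out.

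The absence of replicates limits every value: a difference between days holds the spread between libraries, for which days 9 and 11 were used. Values under 50 carry the widest spread, which bears on BGN, on THY1 after day 3, on DCN up to day 7, on POSTN up to day 5, and on the calls of FBN1 from day 0, PDGFRA from day 3 and PDGFRB from day 7. At the top of the scale SPARC cannot show a further increase. LUM from day 9 on and DCN on days 13 and 21 also lay on the shared top levels. Differences between libraries on these levels are set by the steps between levels. FBLN1, POSTN, FBN1 and THY1 reached these levels in some libraries.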
